A study of Caenorhabditis elegans with 15 samples.

Results

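The gene argk-1 (WBGene00009706) encodes an arginine kinase and is 1 of 46911 genes in the count table. It was chosen by its measured rise in S441L relative to WT animals grown in parallel, so the libraries of those groups set the choice, and every argk-1 value that involves them is given as a description with no test. Arginine kinases move a phosphate between ATP and arginine. Phosphoarginine is a reserve from which invertebrate cells refill ATP quickly, the role that creatine kinase and phosphocreatine have in vertebrates. In adult C. elegans, argk-1 is known as an effector of long life span in S6 kinase mutants, where it acts together with the energy sensor AMPK.

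Whole L1 larvae gave 15 RNA-seq libraries in 5 groups, each of 3 biological replicates. Bleached adults gave embryos that hatched in M9 buffer without food over a day, so that all animals were starved and had never fed. eff-1 encodes the fusogen of most epidermal cells, and the study asked how loss of epidermal fusion alters the transcriptome at hatching. P37Stop and a parallel WT group, called WT batch 2 here, made up the second experiment, and S441L, P183L and WT (WT batch 1) the first.

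P37Stop was made by CRISPR with inserted stop codons in animals that carried kuIs46, an ajm-1::GFP transgene with unc-119(+), and bqSi640, an epidermal reporter under the dpy-7 promoter. S441L is eff-1(oj55) and P183L is eff-1(hy21). Both came from mutagenesis screens, are temperature-sensitive, appear to leave part of the function, are expected to carry background mutations, and are in strains with jcIs1, a transgene that holds rol-6(su1006), unc-29(+) and ajm-1::GFP. WT of the first experiment was N2, and the labels give WT batch 2 as WT. An effect of an eff-1 allele and one of its strain background cannot be told apart in these comparisons. In whole animals, fewer cells of a type and less RNA per cell cannot be told apart either.

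The libraries held between 35858225 and 47820216 counts. A gene was called where the quasi-likelihood test of edgeR gave an adjusted p (Benjamini-Hochberg, over all genes tested) below 0.05 and its log2 fold change was beyond 0.5 in size. By this rule 18.6% of genes were called in P37Stop, 40% in S441L and 80.4% in P183L, each against the WT group of its own experiment. The WT groups were called different from each other for 32.9% of genes.

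argk-1 lies on the plus strand of chromosome V of WBcel235 (ce11), at chrV:16103894-16105952. Its single annotated transcript has 4 exons of 71, 786, 213 and 143 bases, 1213 in all, with an open reading frame of 373 codons including the stop. No other annotated gene overlaps it, and all of its deposited values were whole numbers.

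argk-1 was far higher in S441L than in any other group. The deposited counts were 6165, 5928 and 5705 in S441L replicates 1 to 3. They were 172, 162 and 165 in P183L, and 72, 40 and 63 in WT batch 1. In the second experiment the counts were 55, 75 and 58 in P37Stop, and 29, 61 and 30 in WT batch 2. The transcript was thus present in every library, at 29 to 75 counts in both WT groups and P37Stop, and its place among the genes of a library moved with the group. By TPM (a level scaled for exon length and library size) it ranked between 1053 and 1076 in the S441L libraries, and between 10364 and 10420 in those of P183L. The ranks were 13062 to 13440 in P37Stop, 12618 to 13915 in WT batch 2 and 12109 to 12698 in WT batch 1.

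Scaled to library size (CPM, a count rescaled to a common library size with TMM normalization), argk-1 was at 131, 129 and 128 CPM in the S441L libraries, a mean of 129 ± 1.54 CPM (SD, n = 3). In P183L it was at 3.57, 3.57 and 3.65 CPM, a mean of 3.60 ± 0.0457 (SD, n = 3). In WT batch 1 it was at 1.89, 1.31 and 1.59 CPM, a mean of 1.60 ± 0.289 (SD, n = 3). The lowest S441L library was 67.9 times the highest WT batch 1 library and 35.2 times the highest P183L library. The coefficient of variation among the S441L libraries, 1.19%, was close to the 1.3% that counting error alone gives. Among the P183L libraries it was 1.27%, under the 7.75% that counting error alone gives, so the SD of P183L understates its uncertainty. Relative to the library total alone, S441L replicate 1 had 135 argk-1 CPM (95% Wilson interval 132 to 138), and WT batch 1 replicate 1 had 1.70 CPM (1.35 to 2.15). These intervals cover counting error only.

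The fold of the mean CPM was 80.9 for S441L over WT batch 1, 36.0 for S441L over P183L and 89 for S441L over P37Stop. In the edgeR fit the log2 fold change of argk-1 was 6.36 in S441L relative to WT batch 1 (standard error, SE, 0.081), and 7 of the 15685 genes tested had a larger one. Relative to P183L, which carries the same transgene by its strain description and was grown beside it, the log2 fold change in S441L was 5.18 (SE 0.046). Both are descriptions, since the first chose the gene and the second uses the same S441L libraries.

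**Figure D1:**
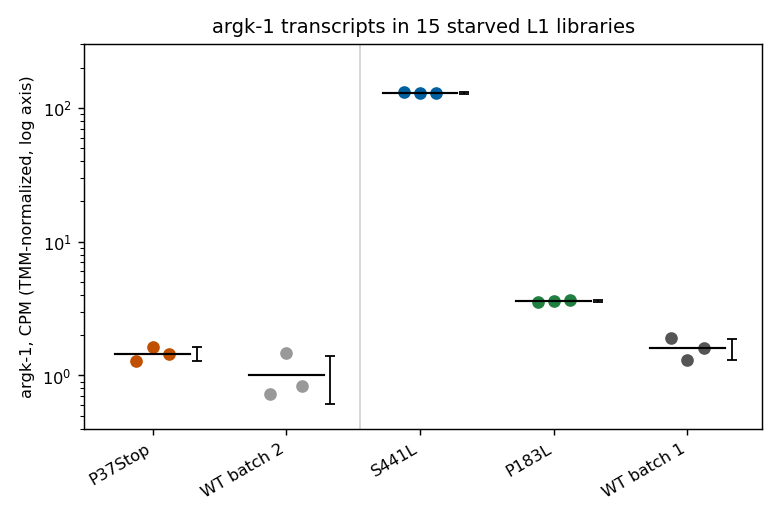
argk-1 CPM (log axis, TMM-normalized) in the 15 libraries, with the mean of each group as a line and the SD as a bar beside it (n = 3). The S441L libraries sit between 128 and 131 CPM and the P183L libraries between 3.57 and 3.65 CPM, while P37Stop and both WT groups lie between 0.722 and 1.89 CPM.

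P37Stop against WT batch 2 is the one mutant comparison whose libraries did not bear on the choice of the gene. argk-1 was at 1.29, 1.63 and 1.44 CPM in P37Stop (mean 1.45 ± 0.174, SD, n = 3), against 0.722, 1.46 and 0.838 CPM in WT batch 2 (mean 1.01 ± 0.397, SD, n = 3). The groups overlapped, since WT batch 2 replicate 2 was above P37Stop replicates 1 and 3. The log2 fold change was 0.55 (SE 0.45, 95% interval -0.44 to 1.54) with an adjusted p of 0.408 by the quasi-likelihood test of edgeR. An exact two-sided permutation test of the 6 libraries gave p = 0.3, where the smallest p this design allows is 0.1. The upper bound of the interval lies far below the 6.36 of S441L. Fitted together in 15 libraries, the log2 fold change in S441L minus that in P37Stop was 5.81 (SE 0.27), which is again a description.

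The size of the P37Stop difference depended on 1 control library. Without WT batch 2 replicate 2 the log2 fold change was 0.92 (adjusted p = 0.224 by the quasi-likelihood test of edgeR), and it was not called in any fit that left out 1 library. As descriptions, since they draw on libraries that chose the gene, the value was 0.52 (SE 0.20) in a fit of all 15 libraries and -0.11 with WT batch 1 as the control. The value from the fit of all libraries passed the thresholds of a call, unlike that of the main fit.

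P183L libraries all lay above those of WT batch 1, as 47.2% of genes did, with a log2 fold change of 1.11 (SE 0.18). TPM, which carry no TMM scaling, were 5.83 ± 0.0917 in P183L and 1.47 ± 0.304 in WT batch 1 (SD, n = 3 each), further apart than the CPM. With total counts as the scaling the log2 fold change was 1.61. Read as a description, since it rests on the WT batch 1 libraries that chose the gene, it sits in a comparison where 40.2% of genes were called higher. WT batch 2 and WT batch 1 overlapped, with a log2 fold change of -0.56 (SE 0.37). In order of mean CPM the groups ran S441L, P183L, WT batch 1, P37Stop and WT batch 2, and the last 3 of these overlapped each other.

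All body wall muscle, pharyngeal muscle, intestinal and neuronal markers matched averaged at least 1 TPM in every group. Of 7 glial markers, 4 averaged below 1 TPM in each WT group and 2 in each mutant, and 1 had 0 counts in every WT batch 2 library. Of 23 maternal and oocyte markers, 10 averaged below 1 TPM in WT batch 1 and 12 in WT batch 2. The summed TPM of 10 body wall muscle markers was 10275 to 10467 (S441L), 2651 to 2688 (P183L) and 12714 to 13231 (WT batch 1). That of 7 glial markers was 68.8 to 72.1 (S441L), 70.0 to 74.1 (P183L) and 60.1 to 60.9 (WT batch 1). The sums in S441L, P183L and WT batch 1 were 370 to 383, 301 to 305 and 204 to 213 TPM for 5 pharyngeal muscle markers, and 9103 to 9551, 995 to 1007 and 9901 to 10870 TPM for 8 intestinal markers. They were 268 to 284, 1796 to 1918 and 248 to 272 TPM for 9 epidermal markers, and 1360 to 1412, 608 to 619 and 2226 to 2301 TPM for 10 neuronal markers. P183L thus differed from WT batch 1 in most of these sums by far more than S441L did. The sums of TPM carry no TMM scaling. In the TMM-scaled fit of P183L against WT batch 1, the pharyngeal and glial medians went opposite to their sums. Of 5 pharyngeal genes 0 were called higher and 3 lower, with a median log2 fold change of -0.73. Of 6 glial genes tested 2 were called higher and 4 lower, with a median of -1.47, where 40.2% of all genes were called in each direction. For 23 maternal and oocyte markers the S441L libraries summed to 147 to 153 TPM, the P183L libraries to 1200 to 1201 TPM and the WT batch 1 libraries to 58.5 to 64.3 TPM. In the second experiment these maternal sums were 112 to 238 in P37Stop, against 39.5 to 75.1 in WT batch 2. Of the 21 maternal genes tested, 15 were called higher in P37Stop (12.7% of all genes were), 20 in S441L (24.2% of all genes) and 21 in P183L (40.2% of all genes). Genes near the floor in WT can pass the filter only through the mutant libraries. Which of the maternal genes did so was not examined, so these counts are a description. The part of the markers in the argk-1 levels was not tested.

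The C. elegans genome holds 4 other genes of the list of arginine kinases, F46H5.3, W10C8.5, ZC434.8 and F32B5.1. They are on chromosomes X, I, I and I, with open reading frames of 397, 400, 361 and 428 codons including the stop. F46H5.3 supplied most arginine kinase transcripts in every library. Its level was 977 ± 10.9 TPM in S441L, 842 ± 9.75 TPM in P183L and 2076 ± 67.0 TPM in WT batch 1 (SD, n = 3 each). In the second experiment it was 1585 ± 83.5 TPM in P37Stop and 2072 ± 93.1 TPM in WT batch 2 (SD, n = 3 each). The main arginine kinase transcript was therefore lower in all 3 mutants, including the one in which argk-1 was high.

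F46H5.3 fell by a log2 fold change of -0.62 in P37Stop (SE 0.092, adjusted p = 0.00078), -1.33 in S441L (SE 0.045, adjusted p = 4.3e-11) and -2.18 in P183L (SE 0.048, adjusted p = 2.87e-13), all by the quasi-likelihood test of edgeR. In P37Stop, the fall was -0.40 with total counts as the scaling, under the threshold of size. argk-1 made up 12 ± 0.309% of the summed TPM of the 5 genes in S441L, 0.620 ± 0.00628% in P183L and 0.0700 ± 0.0167% in WT batch 1 (SD, n = 3 each). The share was 0.0947 ± 0.00860% in P37Stop and 0.0419 ± 0.0167% in WT batch 2 (SD, n = 3 each). The high argk-1 of S441L did not bring the sum to the WT level. The 5 genes summed to 1204 ± 7.51 TPM in S441L, against 2108 ± 68.1 TPM in WT batch 1 (SD, n = 3 each).

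W10C8.5 moved in opposite directions in S441L and P37Stop. It was at 79.1 ± 0.642 TPM in S441L, 58.7 ± 2.79 TPM in P183L and 26.8 ± 1.5 TPM in WT batch 1 (SD, n = 3 each). In the second experiment it was at 52.4 ± 4.59 TPM in P37Stop, against 94.9 ± 5.43 TPM in WT batch 2 (SD, n = 3 each). The log2 fold change was 1.32 in S441L (adjusted p = 3.75e-10) and -1.09 in P37Stop (adjusted p = 2.36e-05), and 0.26 in P183L (adjusted p = 0.0029), which is under the threshold of size, all by the quasi-likelihood test of edgeR. With total counts as the scaling the P183L value was 0.76, past that threshold. The WT groups themselves differed by 1.95 (WT batch 2 over WT batch 1, adjusted p = 8.93e-09 by the same test). With the WT groups exchanged as controls, the log2 fold changes of W10C8.5 were -0.59 in S441L, 0.75 in P37Stop and -1.54 in P183L, so that each direction turned.

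ZC434.8 rose in P183L and P37Stop and was not called in S441L. It was at 32 ± 1.28 TPM in P183L, 3.82 ± 0.743 TPM in S441L and 3.25 ± 0.372 TPM in WT batch 1 (SD, n = 3 each), with log2 fold changes of 2.43 in P183L (adjusted p = 1.34e-10) and -0.01 in S441L (adjusted p = 0.976) by the quasi-likelihood test of edgeR. In P37Stop it was at 12 ± 3.96 TPM, against 4.19 ± 2.33 TPM in WT batch 2 (SD, n = 3 each), for a log2 fold change of 1.28 (adjusted p = 0.0283 by the same test). That call was lost without P37Stop replicate 2 (0.94, adjusted p = 0.117), WT batch 2 replicate 2 (1.07, adjusted p = 0.118) or WT batch 2 replicate 3 (1.00, adjusted p = 0.107). ZC434.8 overlaps the end of coa-6 on the other strand by a few bases.

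F32B5.1 was below 1 TPM in every library and was called in no comparison. Its values and those of W10C8.5 were not whole numbers in 14 of 15 libraries each, while their sums were whole within 0.01 in 15 of 15, so the counting divided shared reads between them and the level of F32B5.1 is uncertain. It took 0 to 2.44% of the pair. Counted over the 4 genes, 1 was called higher and 2 lower in P37Stop, where 12.7% and 5.9% of all genes were. In S441L 1 was called higher and 1 lower (24.2% and 15.8% of all genes), and in P183L 1 and 1 (40.2% each). The median log2 fold change of the 4 genes was -0.34 in P37Stop, -0.22 in S441L and 0.03 in P183L, beside 0.02, 0.03 and 0.02 for all genes tested.

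**Figure D2:**
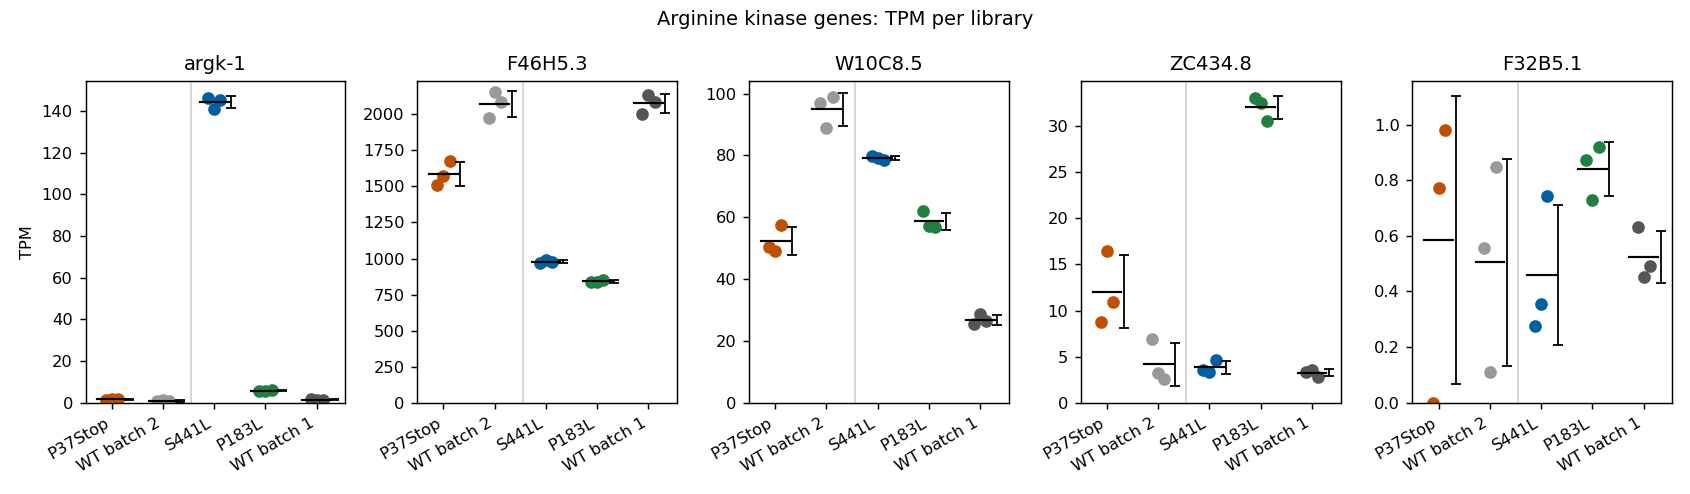
TPM of argk-1 and the other 4 arginine kinase genes in each library, with the group mean as a line and the SD as a bar (n = 3), each panel on its own scale from 0. argk-1 is high in S441L only, at 144 ± 2.85 TPM, while F46H5.3 is lower in each mutant than in its WT group.

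The genes beside argk-1 on chromosome V were examined as the 3 nearest on each side that passed the filter over the 15 libraries. On the left lie F22B8.7, str-7, a seven-transmembrane receptor of the chemoreceptor class, and cth-1, a cystathionine gamma-lyase of sulfur amino acid metabolism. On the right lie skr-3, which is related to the ubiquitin ligase subunit Skp1, nhr-111, a nuclear hormone receptor, and fbxa-143, an F-box protein gene. cth-1 ends 1144 bases before argk-1 starts, on the same strand, and skr-3 starts 15132 bases after argk-1 ends.

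In S441L 4 of the 5 neighbours tested were called higher, where 24.2% of all genes were called higher, but str-7 passed the filter on low counts only through the S441L libraries, so its call carries no weight. str-7, 4353 bases from argk-1, had 462, 437 and 408 counts in S441L, against 6, 5 and 3 counts in WT batch 1, for a log2 fold change of 6.20 (SE 0.21). cth-1 was at 81.3 ± 2.07 CPM in S441L and 29 ± 1.84 CPM in WT batch 1 (SD, n = 3 each), for a log2 fold change of 1.54 (adjusted p = 3.75e-11 by the quasi-likelihood test of edgeR). F22B8.7 rose by 1.29 (adjusted p = 1.14e-10) and fbxa-143 by 2.55 (adjusted p = 1.04e-10) on the log2 scale in the same fit. skr-3, at 0.49 (adjusted p = 2.64e-06), was just under the threshold of size, and its S441L value passed it with total counts (0.68).

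In P183L the neighbours differed from each other in direction. str-7 had 114, 98 and 96 counts in P183L, against 6, 5 and 3 in WT batch 1, for a log2 fold change of 4.01. skr-3 fell by -1.68 (adjusted p = 1.44e-11) and fbxa-143 by -2.20 (adjusted p = 2.19e-07) on the log2 scale by the quasi-likelihood test of edgeR, while F22B8.7 (-0.37) and cth-1 (0.24) were under the threshold of size. cth-1 passed it with total counts as the scaling (0.74) and with WT batch 2 as the control (0.66). nhr-111 had 74, 68 and 64 counts in P183L, against 1, 0 and 1 in WT batch 1. Both str-7 and nhr-111 passed the filter only through the P183L libraries, so their values are given without the test. nhr-111 was not tested in S441L, at 3, 7 and 7 counts, nor in P37Stop, at 15, 8 and 1 counts.

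In P37Stop F22B8.7 fell by -0.55 (adjusted p = 0.0016) and cth-1 by -0.53 (adjusted p = 0.00874) on the log2 scale, and fbxa-143 rose by 0.63 (adjusted p = 0.0418), in the quasi-likelihood test of edgeR. With total counts as the scaling F22B8.7 (-0.33) and cth-1 (-0.31) were no longer called. The fbxa-143 call was lost when any of 4 of the 6 libraries was left out (P37Stop replicate 1 or 2, WT batch 2 replicate 1 or 2), with log2 fold changes of 0.55, 0.58, 0.61 and 0.51. str-7 was at 12, 21 and 22 counts in P37Stop, against 22, 3 and 28 in WT batch 2, with no call.

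Within 100 kb of argk-1 on either side, without argk-1 itself, 17 of 38 genes tested were called higher (44.7%, beside 24.2% of all genes) and 6 lower (15.8% of all genes) in S441L. Of these calls, 3 higher and 1 lower were of genes with no library of the low group above the minimum of the filter. In P183L 16 of 37 were called higher and 15 lower, near the 40.2% of all genes in each direction. Among these P183L calls, 3 higher and 6 lower were likewise of genes with no library of the low group above that minimum. In P37Stop 4 of 41 were called higher and 3 lower, near the 12.7% and 5.9% of all genes. In each comparison at least 1 other called gene reached the minimum in only some libraries of the low group. Such genes also needed the high group to pass the filter, so the window counts are a description. The pseudogene WBGene00009047, 17.5 kb to the left, had a log2 fold change of 4.42 in S441L. It was picked after its value was seen, so no test of it is given. The genes of a window share their surroundings and are not independent points.

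**Figure D3:**
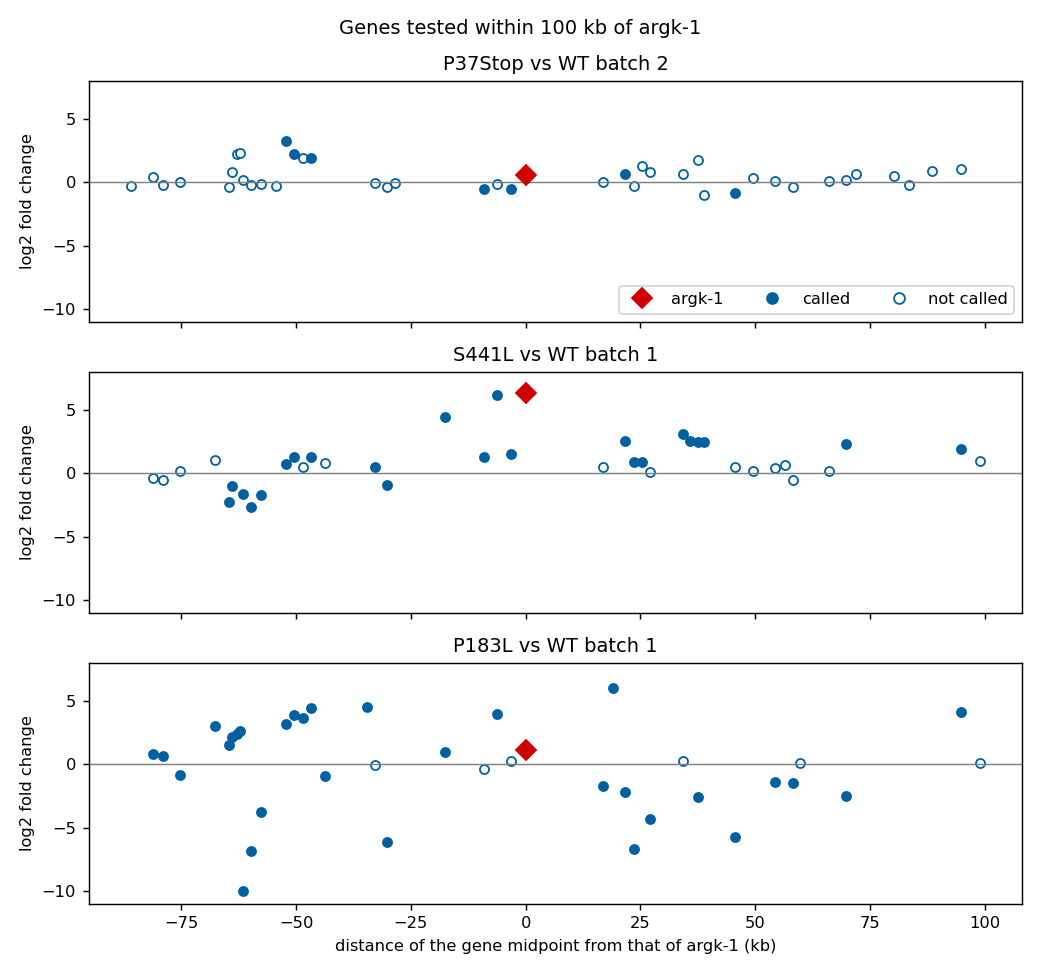
log2 fold change (vertical axis) of each gene tested within 100 kb of argk-1, by the distance of its midpoint from that of argk-1 in kb, for P37Stop, S441L and P183L against the WT of the same experiment. Filled points are called genes and open points are not, and the diamond is argk-1, at 0.55, 6.36 and 1.11.

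Across the 15 libraries 42 of 17179 other genes had a Pearson correlation above 0.9 with the log2 CPM of argk-1. The libraries share 5 groups in 2 experiments, so the correlation mainly ranks genes by how far S441L stands apart. The 5 most like argk-1 were unc-29 (r = 0.994, Spearman's rho = 0.90), the pseudogene WBGene00045410 (r = 0.985, rho = 0.80), F55H12.3 (r = 0.980, rho = 0.90), rol-6 (r = 0.974, rho = 0.90) and C05C8.7 (r = 0.973, rho = 0.64). They lie on chromosomes I, II, I, II and V. C05C8.7 has the same pattern at a far smaller size, at 250 ± 1.60 CPM in S441L and 206 ± 4.01 CPM in WT batch 1 (SD, n = 3 each).

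unc-29, a subunit of the muscle acetylcholine receptor, and rol-6, a cuticle collagen, are both carried by the jcIs1 transgene. rol-6 was at 430, 445 and 412 CPM in the S441L libraries. It was at 1.41, 1.52 and 2.06 CPM in those of P183L, and at 0.603, 0.557 and 0.405 CPM in those of WT batch 1. unc-29 averaged 182 ± 1.58 CPM in S441L, 20.2 ± 1.72 in P183L and 13.1 ± 0.335 in WT batch 1 (SD, n = 3 each). The P183L libraries were thus near WT batch 1 for both genes, although the strain is described with the same transgene. ajm-1, the third gene of jcIs1, was at 4145 ± 43.1 CPM in S441L, 1037 ± 14.1 in P183L and 750 ± 15.3 in WT batch 1 (SD, n = 3 each). In the second experiment it was at 2560 ± 55.1 CPM in P37Stop and 2107 ± 37.1 CPM in WT batch 2 (SD, n = 3 each).

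F55H12.3 lies beside unc-29 on chromosome I. The 10 genes of that stretch were looked at after the unc-29 value was seen. In S441L the log2 fold changes from F55H12.3 on were 2.50 for it, 3.98 for F55H12.4, 3.83 for unc-29, 2.62 for tgs-1, 2.75 for vps-13 and 6.27 for T08G11.2. T08G11.2 passed the filter only through the S441L libraries, so its value carries no weight. The genes on either side were at 0.74 for F55H12.2, -0.79 for spe-54, 0.82 for snf-2 and 0.48 for T08G11.3. In P37Stop and WT batch 2, rol-6 was below 1 CPM and unc-29 at 14.8 ± 0.984 CPM in P37Stop, against 12.9 ± 3.78 in WT batch 2 (SD, n = 3 each). unc-119, a gene of kuIs46, was at 1062 ± 65.4 CPM in P37Stop, 844 ± 40.5 in WT batch 2 and 28.1 ± 0.673 in WT batch 1 (SD, n = 3 each), so that WT batch 2 was near P37Stop for both genes of kuIs46. The labels do not say whether WT batch 2 carries that transgene. The part of these transgenes in the argk-1 levels was not tested.

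None of the other arginine kinases followed argk-1 over the 15 libraries, with Pearson correlations of 0.17 for W10C8.5, -0.04 for F32B5.1, -0.27 for ZC434.8 and -0.53 for F46H5.3. That of ajm-1 was 0.58 and that of eff-1 itself 0.48. eff-1 was at 18.4 ± 1.60 CPM in P37Stop and 26.9 ± 2.65 CPM in WT batch 2 (SD, n = 3 each). In the first experiment it was at 32.2 ± 1.85 CPM in S441L, 33 ± 2.18 in P183L and 28.7 ± 2.21 in WT batch 1 (SD, n = 3 each).

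**Figure D4:**
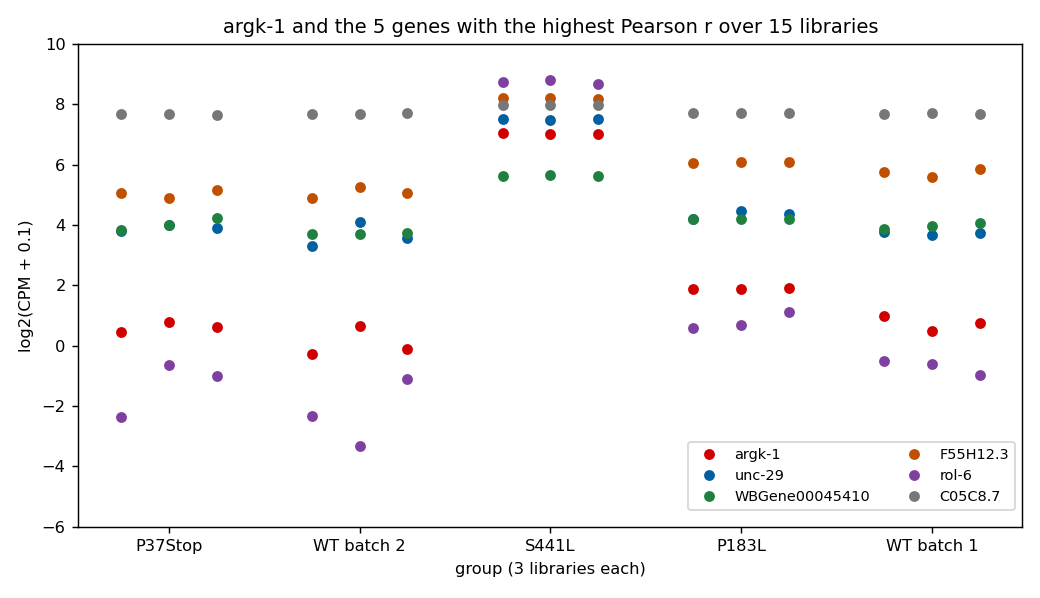
log2(CPM + 0.1) in each library, by group, of argk-1 and the 5 genes with the highest Pearson correlation with it over the 15 libraries. Each point is a library (3 per group). All 6 genes are highest in S441L, by amounts that differ widely between them, from 250 against 206 CPM for C05C8.7 to 429 against 0.522 CPM for rol-6 (means of S441L and WT batch 1).

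Genes tied to argk-1 by earlier work or by its chemistry were counted in lists. AMPK, which senses a low ATP level, and its activators and targets gave 15 genes, all tested. In P37Stop 0 were called by the quasi-likelihood test of edgeR, where 18.6% of all genes were, and their median log2 fold change was -0.10. At an unadjusted p under 0.05, 5 of the 15 passed, and DESeq2 and limma voom also called 0. In S441L 2 were called, both lower (15.8% of all genes were), with a median of -0.29. These were the gamma subunits aakg-1 at -0.63 (adjusted p = 4.05e-08) and aakg-4 at -0.62 (adjusted p = 1.53e-08, the quasi-likelihood test of edgeR), and with total counts as the scaling neither was called. Other settings called more genes of the list in S441L: DESeq2 called 4, limma voom 3, and a fit of all 15 libraries 5 lower. In P183L 4 were called higher and 10 lower (40.2% of all genes in each direction), with a median of -1.05, from aakg-2 at 1.23 (adjusted p = 1.24e-10) to aakg-4 at -5.25 (adjusted p = 6.54e-15 by the same test).

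TOR and S6 kinase genes, the nutrient pathway in whose mutants argk-1 was studied, gave 17 genes, all tested. In P37Stop the one call was the kinase sgk-1, lower at -0.59 (adjusted p = 0.00212, the quasi-likelihood test of edgeR). In S441L the calls were pdk-1, lower at -0.58 (adjusted p = 7.65e-08), and sinh-1, lower at -0.56 (adjusted p = 9.57e-05 by the same test). The P37Stop call and both S441L calls were lost with total counts as the scaling. In P183L 1 was called higher, nprl-2 at 1.07 (adjusted p = 3.13e-09), and 5 lower, the largest fall being that of akt-2 at -2.85 (adjusted p = 8.52e-15 by the same test). The number called higher in P183L was 6 with total counts as the scaling and 3 with WT batch 2 as the control. Of all genes 18.6% were called in P37Stop, 40% in S441L and 80.4% in P183L, so that the share of this list was below the background in each. rsks-1, the S6 kinase, had log2 fold changes of -0.01 in P37Stop, -0.01 in S441L and -0.38 in P183L, none of them called.

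Enzymes that pass phosphates between nucleotides gave 5 genes. In P37Stop 3 were called lower (5.9% of all genes were), from the adenylate kinase let-754 at -0.61 (adjusted p = 0.00136, the quasi-likelihood test of edgeR) to F38B2.4 at -0.51 (adjusted p = 0.0133 by the same test), and none with total counts as the scaling. In S441L let-754 alone was called, higher at 0.50 (adjusted p = 1.51e-05), at the edge of the threshold of size, where 24.2% of all genes were called higher, and DESeq2 called 0 of the 5. In P183L 3 were called lower (40.2% of all genes were), from ampd-1, an AMP deaminase, at -2.70 (adjusted p = 1.04e-14) to F38B2.4 at -1.35 (adjusted p = 2.41e-10 by the same test). The WT groups themselves differed, with 3 of the 5 called higher in WT batch 2 than in WT batch 1, let-754 by 1.46. With the WT groups exchanged as controls, 0 were called higher and 3 lower in S441L. In P37Stop that exchange gave 1 higher and 1 lower.

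The mitochondrial ADP/ATP carriers gave 4 genes. ant-1.1, by far the most abundant, fell in all 3 mutants, by log2 fold changes of -0.57 in P37Stop (adjusted p = 0.00312, not called with total counts as the scaling), -0.88 in S441L (adjusted p = 2.22e-10) and -3.27 in P183L (adjusted p = 8.03e-15), by the quasi-likelihood test of edgeR. Its values were not whole in 12 libraries, so some reads were shared with another gene. ant-1.2 had 144, 132 and 91 counts in P37Stop, against 5, 42 and 4 in WT batch 2, and 159, 157 and 177 counts in S441L, against 19, 20 and 26 in WT batch 1. In P37Stop its log2 fold change was 2.77, but only 1 WT batch 2 library was above the minimum of the filter. It thus needed the P37Stop libraries to pass, and its value there is given without the test. With at least 10 counts required in every library, 0 carriers were called higher in P37Stop. In S441L ant-1.2 was called higher at 2.61 (adjusted p = 8.92e-08 by the same test), while in P183L it had 2, 7 and 1 counts. ant-1.3 had 26, 16 and 19 counts in P183L, against 0, 1 and 1 in WT batch 1. In P183L both passed the filter only through the group in which they were high, and no test of them is given.

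**Figure D5:**
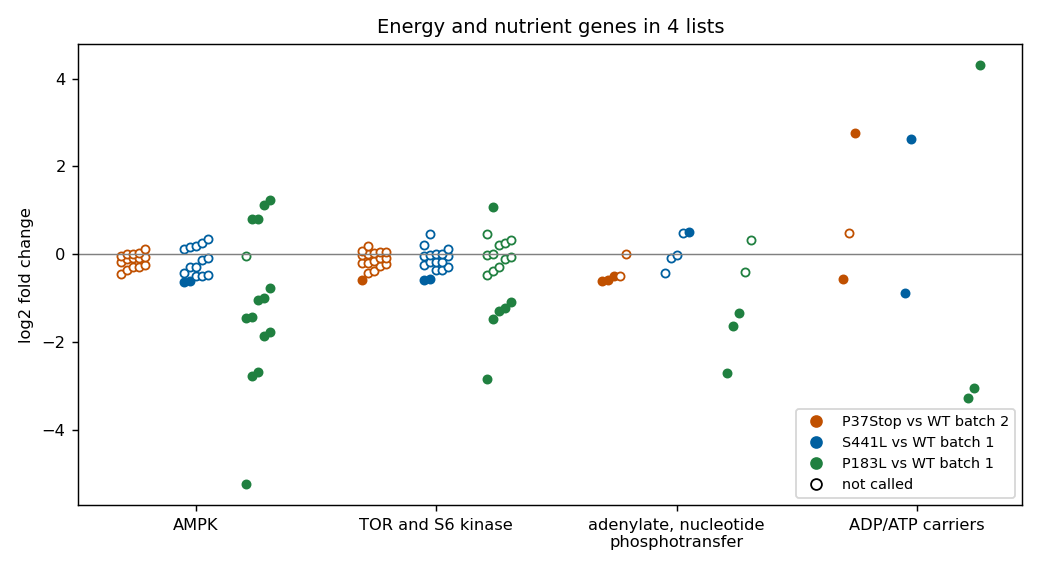
log2 fold change of each gene tested in 4 lists of energy and nutrient genes, for P37Stop, S441L and P183L against the WT of the same experiment. Filled points are called genes and open points are not. In P37Stop and S441L most points lie within 0.5 of 0, while P183L runs from -5.25 (aakg-4) to 4.31 (ant-1.3).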

How the data were processed

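Libraries were made from poly(A) RNA with TruSeq kits and sequenced in pairs. The authors used fastp for read filtering, STAR and Salmon for alignment and pseudoalignment to ce11, Picard against duplicates and HTSeq for counting. The estimated counts per gene that the authors deposited (expected counts) are not scaled for depth, and the sources used here do not say which route made them. Of the values 3.7% are not whole and were rounded. A line without a gene ID, equal to 100% of the total of a column, was left out. Replicates came from separate culture plates.

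Annotation was Ensembl release 115 on WBcel235 (46857 gene IDs matched, 54 not). Each comparison used its own libraries, filterByExpr (minimum count 10), TMM and the quasi-likelihood test of edgeR 4.0.16 in R 4.3.3, with p adjusted by Benjamini-Hochberg. DESeq2 1.42.0, limma 3.58.1 and data.table (version 1.17.8) were also used. Differences between effects were contrasts in a fit of all 15 libraries. TPM used summed exon lengths. Correlations used log2 CPM with a prior count of 2. All replicate pairs differed by more than sampling noise (chi-square from 3.28 to 53.0 per degree of freedom). The test was tried on simulated data. Low argk-1 counts, 29 to 75 outside S441L and P183L, limit the precision there.

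Most genes were named by rule: argk-1, the arginine kinases, the 5 genes most correlated with argk-1, the 3 neighbours on each side, transgene genes, eff-1, and the called genes of each list with the largest and smallest change. WBGene00009047, the genes of the stretch around unc-29, coa-6 and rsks-1 were named outside the rules. argk-1, the lists and the rules were chosen with earlier results of these data known. Alternatives were DESeq2, limma voom, scaling by DESeq2's size factors, the upper quartile or total counts, no filter or a stricter one, all libraries in 1 fit, the replicate number as a block, the other WT group as control, and leaving out each library. opt-2, on the intestinal list, was not matched.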

Additional observations from a re-analysis of the deposited data

Results flagged for a closer look

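The log2 fold changes in S441L and in P37Stop differed for several arginine kinases and genes beside argk-1. The test was the contrast of effects in the quasi-likelihood fit of edgeR of all 15 libraries. For the neighbours of argk-1, the effect in S441L minus that in P37Stop was 2.05 for cth-1 (adjusted p = 1.87e-09), 1.82 for F22B8.7 (adjusted p = 1.85e-09) and 1.89 for fbxa-143 (adjusted p = 9.96e-06). For str-7 the difference was 6.26, at 3 to 6 counts in WT batch 1. It is given without the test, since against WT batch 1 str-7 passed the filter only through the S441L libraries. For the arginine kinases the difference was 2.39 for W10C8.5 (adjusted p = 2.29e-10), -0.73 for F46H5.3 (adjusted p = 2.13e-06) and -1.29 for ZC434.8 (adjusted p = 0.0331). F46H5.3 fell in both mutants, by more in S441L. The WT groups of the 2 experiments enter this contrast on opposite sides, and the experiments may differ in ways that they do not carry.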

How the results depend on the processing

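The log2 fold change of argk-1 in P37Stop was 0.52 (SE 0.20) with all 15 libraries in one fit and -0.11 with WT batch 1 as control, both read as descriptions. Only with all libraries in one fit did it pass the thresholds of a call. Left-out libraries gave 0.35 to 0.92 in P37Stop (adjusted p 0.224 to 0.651). They gave 6.25 to 6.49 for S441L and 0.98 to 1.23 for P183L against WT batch 1, -0.96 to -0.37 for WT batch 2 against WT batch 1, and 5.15 to 5.19 for S441L against P183L. With WT batch 2 as control, argk-1 was at 6.96 in S441L and 1.82 in P183L. Total counts as scaling gave 1.61 in P183L, and 4.95 in S441L against P183L, where upper quartile scaling gave 5.33, no filter 5.16 and the stricter filter 5.24. Of the 5 genes most like argk-1, 3 remained with correlations over group means.

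Replicate numbers did not pair the samples (correlations of same-numbered libraries from -0.10 to 0.099), although each P183L library correlated best with the WT batch 1 library of its number. With the replicate block argk-1 was at 0.61 in P37Stop (adjusted p = 0.403), 6.36 in S441L and 1.12 in P183L. The block gave 1829 genes higher and 908 lower in P37Stop, against 2000 and 931 without it. The block turned str-7 in P37Stop to 0.21 and ended the call of fbxa-143 there.

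Other directions turned for values near 0 or for low counts. In P37Stop, str-7 was at 0.42 with limma voom, 0.14 with total counts, -0.61 to 0.49 with libraries left out and 1.71 with WT batch 1 as control. F32B5.1 was at 0.17 with total counts and -0.57 to 0.51 with libraries left out, and skr-3 at -0.0033 to 0.11 with libraries left out and -0.040 with WT batch 1 as control. In S441L, ZC434.8 was at 0.18 with total counts, 0.015 with the stricter filter and -0.16 to 0.081 with libraries left out. In P183L with total counts, F32B5.1 was at 0.30 and F22B8.7 at 0.13. W10C8.5 turned with the WT groups exchanged, to 0.75 in P37Stop, -0.59 in S441L and -1.54 in P183L. The cause of these changes was not tested.

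Total counts as scaling moved the median of all genes from 0.02 to 0.24 in P37Stop, from 0.03 to 0.21 in S441L and from 0.02 to 0.53 in P183L. Calls were then 3155 higher and 362 lower in P37Stop (2000 and 931 with TMM), 4862 and 1603 in S441L (3795 and 2475), and 7904 and 5238 in P183L (6389 and 6379). With WT batch 1 as control P37Stop had 3557 genes higher and 2300 lower. Alternatives for the neighbours, the sum of W10C8.5 and F32B5.1 as 1 feature, and some tools for the lists were added after the data were seen.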
